A study of Mus musculus with 6 samples.

Results

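The clustered protocadherins are a family of cell surface adhesion proteins encoded side by side in the alpha, beta and gamma clusters of mouse chromosome 18. They were selected by gene symbol (Pcdha, Pcdhac, Pcdhb, Pcdhga, Pcdhgb or Pcdhgc followed by a number) and kept where a read count above 0 was recorded in at least 3 of the 6 samples. Of 45777 genes listed, 58 carried such a symbol, and 57 were kept: 13 alpha, 22 beta and 22 gamma genes. Pcdha1, the first gene of the alpha cluster, was at 0 counts in all 6 samples.

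RNA was sequenced from tdTomato-positive cells sorted from the brains of Aldh1l1-CreERT2; tdTomato fl/fl mice, male animals on a C57BL/6 background in which a tamoxifen-inducible Cre, driven by the astrocyte gene Aldh1l1, switches on the red reporter. The 3 vehicle samples came from mice given citrate buffer, and the 3 STZ samples came from mice made hyperglycemic by 1 injection of streptozotocin at 150 mg/kg, given at 8 weeks of age and followed by collection after 21 days. Both groups received tamoxifen at 75 mg/kg for 5 days, and each sample pooled cells of 3 mice. The sample labels give the genotype as WT for both groups. The comparison asks how the family differs between hyperglycemic and normoglycemic mice.

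A protocadherin of the alpha or gamma cluster is made by choosing a promoter and its variable first exon, which encodes the whole extracellular and transmembrane part, and splicing it to constant exons that give every member of the cluster the same cytoplasmic end. The proteins bind copies of themselves on neighboring cells, and neurons use different sets of them as an identity code that keeps branches of the same cell apart. Astrocytes also make gamma protocadherins, which are found in astrocyte processes near synapses and take part in synapse formation.

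The gene layout sets what a count of 1 member can mean. On GRCm38 (mm10), in the RefSeq annotation, the alpha genes lay on the plus strand of chr18:36930285-37188897, the beta genes at chr18:37264998-37521419 and the gamma genes at chr18:37661775-37841873. Exon models came from the GENCODE annotation. All 13 alpha and all 21 gamma genes with a matched exon model had 4 exons, of which the last 3 were shared: chr18:37156155-37156213, chr18:37159265-37159353 and chr18:37184946-37187657 in alpha, and chr18:37825021-37825079, chr18:37833265-37833353 and chr18:37839903-37841873 in gamma. These constant exons made up 48.6% to 54.9% of an alpha transcript and 41.7% to 45.5% of a gamma transcript. The beta genes had 1 exon each and no constant exons, though the exon models of Pcdhb21 and Pcdhb22 overlapped. How the reads of constant exons were divided among members is not given in the sources used here, so sums over a cluster stand beside the single genes. Such sums do not depend on that division if each read was given to 1 member only. Whether shared reads were instead dropped or counted for several members is also not given. Single alpha and gamma values, and sums or shares of subgroups within these clusters, including the C-type ones, are uncertain because the division is not known.

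Sequencing depth was 52529048 to 58749115 counts per sample, at which 3 counts amount to 0.0511 to 0.0571 CPM (read counts scaled to the total of a sample, with TMM factors from edgeR in all later values). The labelled cell type was checked against marker genes. The 8 astrocyte markers had mean FPKM from 25.7 for Gfap to 2294 for Aldoc, with Aldh1l1 at 135. The 10 neuronal markers ranged from 0.0875 for Slc17a7 to 23.1 for Tubb3, close to Gfap. Markers of other cells were also present. Ttr, the leading choroid plexus transcript, had a mean FPKM of 9152, above every astrocyte marker. The choroid plexus list summed to between 6015 and 17746 CPM, lowest in vehicle sample 1. The endothelial list summed to 33.4 to 112 CPM in the vehicle and 100.1 to 196 CPM in the STZ samples, and the mural list, genes of pericytes and vascular smooth muscle, to 108 to 127 and 141 to 178 CPM. In bulk RNA of this kind, fewer cells of a type and less RNA per cell cannot be told apart.

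Levels were compared between genes on the FPKM scale (fragments scaled to transcript length and to the mapped reads of a sample). The gamma cluster held most of the signal. Its summed FPKM was 134 ± 11.2 in vehicle and 119 ± 11.6 in STZ samples (SD, n = 3 each), against 23.5 ± 1.36 and 22.8 ± 2.42 for beta and 1.07 ± 0.362 and 1.11 ± 0.316 for alpha. As a share of the family's summed FPKM, gamma took 82.5% to 85.7%, beta 13.9% to 16.5% and alpha 0.397% to 0.925% over the 6 samples. The ranges of the 3 clusters did not overlap.

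Within gamma, 1 gene stood above the rest. Pcdhgc3, a C-type member (the C-type genes resemble one another more than their cluster neighbors) whose cytoplasmic partner Axin1 belongs to the Wnt pathway, had FPKM of 44.1, 39.1 and 39.2 in the vehicle samples and 35.5, 35.0 and 31.1 in the STZ samples. Its lowest sample lay above the highest sample of every other member, and its mean of 37.4 placed it above 90.6% of the genes detected in every sample. Pcdhgc5, whose protein has been linked to GABA receptors at synapses, followed at 14.5, 11.9 and 12.99 in vehicle and 10.3, 11.01 and 8.70 in STZ samples. The mean of Pcdhgc3 was 3.23 times that of Pcdhgc5.

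The third gamma gene by level was Pcdhga7, an A-type member, at 9.31, 6.33 and 6.24 FPKM in vehicle and 10.5, 7.11 and 6.50 in STZ samples. Its range overlapped that of Pcdhgc5, so these neighbors in the order were not separated by their spread. Pcdhgc4, the C-type member required for the survival of cortical interneurons, had 7.76, 7.59 and 6.80 FPKM in vehicle and 7.30, 5.80 and 5.86 in STZ samples. The 12 gamma A genes had means from 1.17 to 7.66 FPKM, and the 7 gamma B genes from 0.626 to 6.14, the lowest being Pcdhgb8, which the annotation lists as a transcribed pseudogene. The median gamma gene stood at 3.62 FPKM.

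The beta genes were lower, with a median of 0.751 FPKM. Pcdhb14 led with 4.36, 4.02 and 3.90 FPKM in vehicle and 3.71, 3.30 and 2.99 in STZ samples, followed by Pcdhb7, with 2.32, 2.25 and 2.34 against 2.96, 2.03 and 2.15, and Pcdhb17, with 2.32, 2.38 and 2.02 against 2.64, 1.92 and 1.67. The lowest sample of Pcdhb14 was just above the highest of Pcdhb7, while Pcdhb7 and Pcdhb17 overlapped. Pcdhb1 was close to the detection limit, with at most 6 counts in a sample and 0 in 3 of them.

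The alpha cluster was barely detected. Its highest gene was Pcdhac2, the C-type member that serotonergic axons need to spread out, with 0.253, 0.551 and 0.441 FPKM in vehicle and 0.437, 0.213 and 0.429 in STZ samples. Pcdha12 followed with read counts of 32, 25 and 66 in vehicle and 88, 42 and 54 in STZ samples, and Pcdha9 with 27, 52 and 45 against 50, 39 and 21. The groups overlapped for all 3 genes, and the alpha 1 to 12 genes kept included 5 with 0 counts in at least 1 sample. The median of the 13 alpha genes kept was 0.0560 FPKM, and only 7 of them had a count in every sample.

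**Figure D1:**
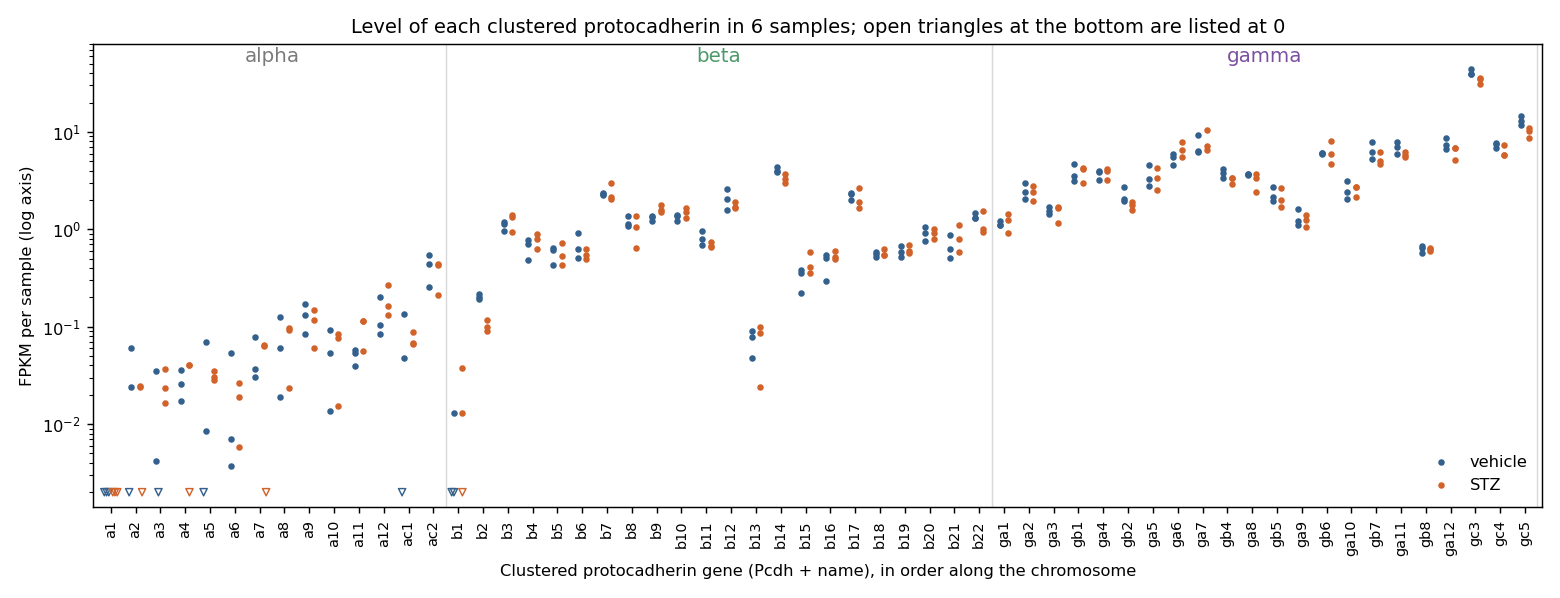
FPKM of the 58 listed members in each of the 6 samples, on a log axis, with the genes in chromosome order; blue points are vehicle and orange points STZ samples, and open triangles at the bottom are samples in which a gene was listed at 0. Gamma genes sit mostly between 1 and 10 FPKM with Pcdhgc3 above them at a mean of 37.4, beta genes mostly near 1, and alpha genes at 0.551 or less.

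The order of the genes within a cluster was similar from sample to sample for beta and gamma. Over the 15 pairs of samples, Spearman's rho between the FPKM of 2 samples was 0.903 to 0.982 across the 22 beta genes and 0.933 to 0.979 across the 22 gamma genes. It was 0.336 to 0.862 across the 13 alpha genes, whose median gene averaged 18.7 counts per sample. These are correlations across genes, which are not independent replicates and here share exons. Mean FPKM went up along the chromosome, toward the constant exons, in alpha (rho 0.846, 13 genes) and less so in gamma (rho 0.527, 22 genes), where it was 0.295 across the 19 A and B genes without the C-type genes that end the cluster. In beta, rho was 0.172 across 22 genes.

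Between STZ and vehicle samples, no member was called, which required an adjusted p under 0.05 together with more than a 1.5-fold difference. Of the 50 members with a count in every sample, which were the ones tested, edgeR called 0, where it called 0.0224% of all 22337 genes tested. DESeq2 also called 0, where it called 1.27% of the genes to which it gave an adjusted p. At an unadjusted p under 0.05 with edgeR, 0 members were higher in STZ, against 5.63% of all genes, and 7 members (14%) were lower, against 5.65%. Of these 7, none was an alpha gene, 2 were beta genes (Pcdhb2 and Pcdhb14) and 5 were gamma genes, among them all 3 C-type genes. The remaining gamma genes were Pcdhga11 and Pcdhgb4, which are named here after their values were seen. The count of 7 became 3 without vehicle sample 1 and 3 without STZ sample 3.

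The log2 fold changes (STZ minus vehicle, on TMM-scaled counts) had a median of -0.13 over the 22 gamma genes, -0.04 over 21 beta genes and -0.01 over 7 alpha genes, beside 0.012 over all genes tested. In gamma, 19 were below 0 and 3 above, including all 7 B-type and all 3 C-type genes below 0. In beta, 13 were below 0 and 8 above, and in alpha 4 and 3. Across all genes tested, 48.1% were below 0. Because gamma genes share reads, their common sign is not a set of independent observations.

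**Figure D2:**
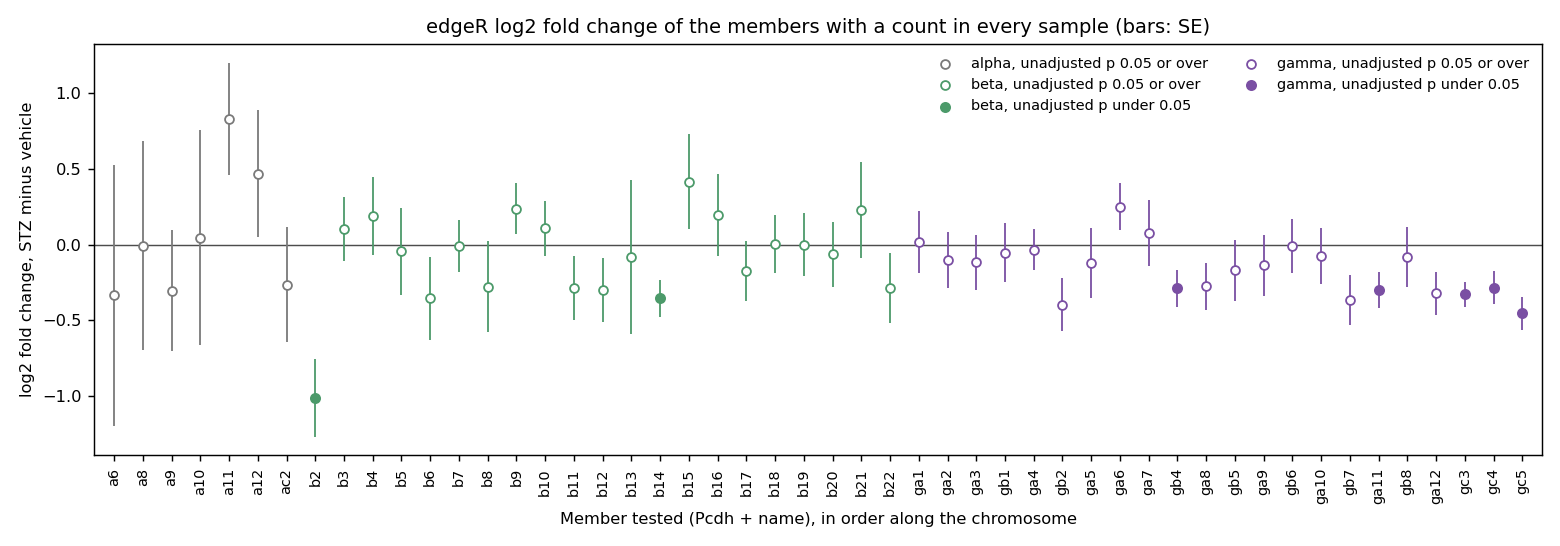
edgeR log2 fold change, STZ minus vehicle, of the 50 tested members in chromosome order, with SE as bars; filled points have an unadjusted p under 0.05 and none passed the adjusted threshold. The 5 filled gamma points lie between -0.45 and -0.28 and Pcdhb2 lies at -1.01.

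The C-type gamma genes were lower in STZ samples when summed, and this was the subgroup with the smallest spread relative to its difference. The sum of Pcdhgc3, Pcdhgc4 and Pcdhgc5 was 342, 301 and 303 CPM in the vehicle samples and 259.7, 255 and 228 CPM in the STZ samples. All 3 STZ samples lay below all 3 vehicle samples. The means were 315 ± 23.6 and 248 ± 17.0 CPM (SD, n = 3), a log2 fold change of -0.35 (SE 0.0873, 95% interval -0.59 to -0.11) or a 21.4% difference. The edgeR adjusted p was 0.285 and the DESeq2 adjusted p 0.0608, so neither passed. The exact two-sided permutation test gave p = 0.1, the smallest that 3 against 3 samples allow.

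Each C-type gene had the same direction. Pcdhgc3 had 225, 199 and 199 CPM in vehicle and 172, 171 and 154 CPM in STZ samples, a log2 fold change of -0.33 (SE 0.0829, edgeR adjusted p = 0.288). Pcdhgc5 had 74.6, 60.7 and 66.3 CPM against 50.1, 54.0 and 43.2 CPM, a log2 fold change of -0.45 (SE 0.110, edgeR adjusted p = 0.280). The groups did not overlap for either gene. Pcdhgc5 was the 1 member with a DESeq2 adjusted p under 0.05 (0.0413), but its fold change was under 1.5. Pcdhgc4 had 42.5, 41.3 and 37.0 CPM in vehicle and 37.8, 30.4 and 31.1 CPM in STZ samples, and here STZ sample 1 was above vehicle sample 3 (log2 fold change -0.28, SE 0.108, edgeR adjusted p = 0.402).

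The other gamma subgroups showed smaller differences. Gamma B genes summed to 134, 116 and 132 CPM in vehicle and 125, 107 and 103 CPM in STZ samples (log2 fold change -0.19, SE 0.0976, 95% interval -0.46 to 0.079). Gamma A genes summed to 274, 216 and 238 CPM against 243, 239 and 198 CPM (log2 fold change -0.10, SE 0.116, 95% interval -0.42 to 0.23). The groups overlapped for both sums, with edgeR adjusted p of 0.503 and 0.792. Pcdhga7, the leading A-type gene, had 47.3, 32.0 and 31.5 CPM in vehicle and 50.3, 34.5 and 32.0 CPM in STZ samples, high in sample 1 of each group, with a log2 fold change of 0.08 (SE 0.217).

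Over the whole gamma cluster the sums were 750.3, 633 and 673 CPM in vehicle and 628, 601 and 529 CPM in STZ samples. The log2 fold change was -0.23 (SE 0.101, 95% interval -0.51 to 0.056, edgeR adjusted p = 0.463), and the exact permutation p was 0.1. The groups lay close to each other: vehicle sample 2 was just above STZ sample 1 in CPM, and on the FPKM scale, at 123.7 and 128.8, the order of these 2 samples was turned around. Vehicle sample 1 was the highest of the 6 for 11 of the 22 gamma genes, and STZ sample 3 was the lowest for 12.

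**Figure D3:**
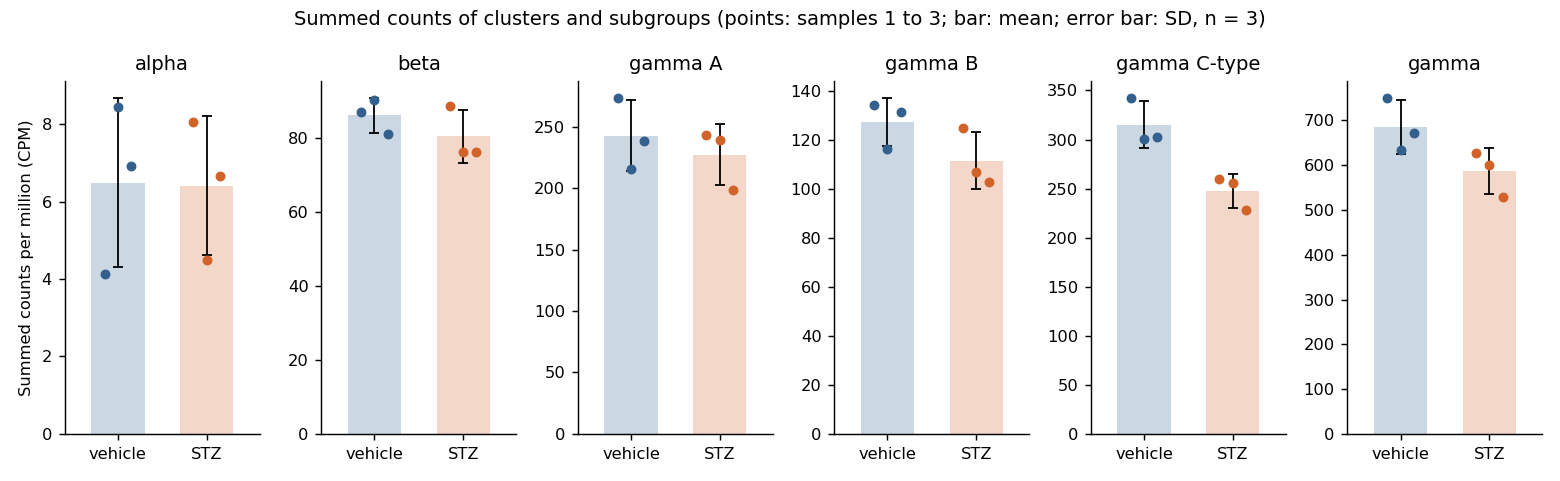
Summed CPM of the alpha, beta and gamma clusters and of the 3 gamma subgroups in each sample, each panel with its own axis from 0; points are samples, bars the mean and error bars the SD (n = 3). The gamma C-type sums of 228 to 259.7 CPM in STZ samples all lie below the 301 to 342 CPM of vehicle samples, while the alpha and beta groups overlap.

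The make-up of the gamma cluster does not depend on how samples are scaled to one another. Like the subgroup sums, it does depend on how reads of the constant exons were divided among members. C-type genes took 45.6%, 47.5% and 45.0% of the gamma counts in the vehicle samples and 41.4%, 42.4% and 43.1% in the STZ samples. Gamma A genes took 36.5%, 34.1% and 35.4% against 38.8%, 39.8% and 37.5%. Both sets of shares separated the groups, and the means differed by -3.76 and 3.35 percentage points. The B-type share overlapped, at 18.6% ± 0.853 and 19.0% ± 1.11 (SD, n = 3). Wilson 95% intervals of a C-type share were at most 1.1 percentage points wide and cover counting error only. Shares sum to 100%, so a lower C-type share and a higher A-type share are not separate results. They were not tested. Among single genes, Pcdhgc3 took 30.0%, 31.4% and 29.6% of gamma counts in vehicle and 27.4%, 28.4% and 29.1% in STZ samples, and Pcdhgc5 9.94%, 9.59% and 9.86% against 7.97%, 8.97% and 8.16%.

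**Figure D4:**
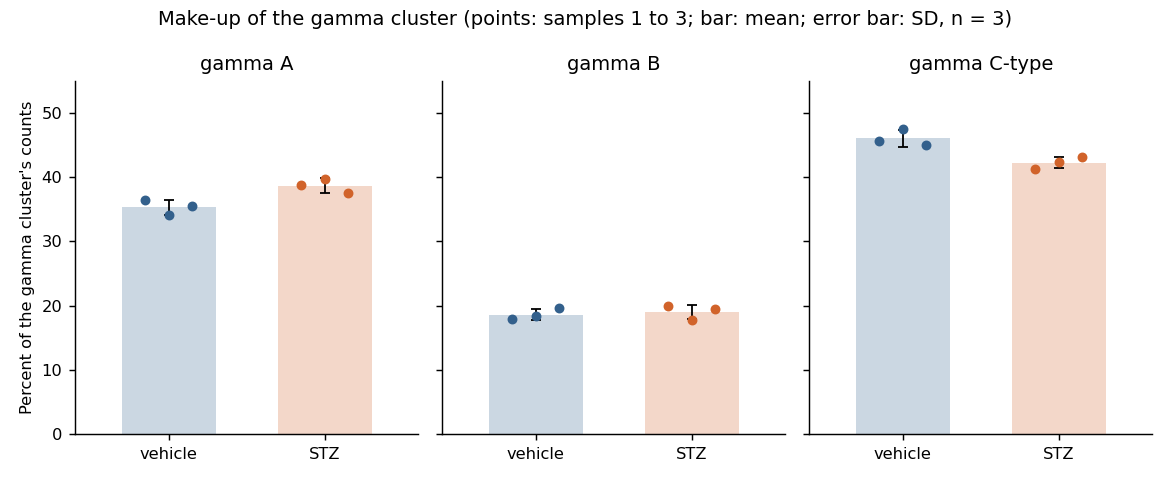
Percent of the gamma cluster's counts assigned to A-type, B-type and C-type genes in each sample; points are samples, bars the mean and error bars the SD (n = 3). C-type shares are 45.0% to 47.5% in vehicle and 41.4% to 43.1% in STZ samples, and A-type shares lie on the opposite side.

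Marker genes of astrocytes and other cells were set beside the C-type sum. Of the 8 astrocyte markers, 6 had a log2 fold change below 0 and 2 above, the latter being Aldoc at 0.16 (SE 0.119) and Gfap at 0.00060 (SE 0.146). All 3 STZ samples lay below all 3 vehicle samples for 3 of the 8, against 9.85% of all genes. These were Aqp4, the water channel of astrocyte endfeet, Aldh1l1, whose promoter drives the Cre, and Slc1a2 (log2 fold change -0.11, SE 0.0916). Aqp4 had 1324, 1071 and 1162 CPM in vehicle and 754, 915 and 884 CPM in STZ samples (log2 fold change -0.48, SE 0.116, edgeR adjusted p = 0.280, DESeq2 adjusted p = 0.0169). Aldh1l1 had 516, 465 and 472 CPM against 434, 427 and 383 CPM (log2 fold change -0.22, SE 0.0838). Aqp4 and Aldh1l1 were at an unadjusted p under 0.05 and did not pass with edgeR after adjustment. The astrocyte list summed to 21955 to 25627 CPM in vehicle and 21320 to 23238 CPM in STZ samples. Of the 6 mural and 7 endothelial markers, 4 and 5 were higher at an unadjusted p under 0.05 with edgeR, against 5.63% of all genes. DESeq2 called 4 of the mural and 1 of the endothelial markers, against 1.27% of all genes, and edgeR called 0. None of the markers was at 0 in all samples. The neuron, oligodendrocyte, oligodendrocyte precursor, microglia, choroid plexus and ependymal lists had 0 genes at that unadjusted p in either direction. The part of the marker genes in the gamma values was not tested. The choroid plexus sums were 6015, 16792 and 17746 CPM in vehicle and 11114, 9116 and 15741 CPM in STZ samples. The lowest of these sums was that of vehicle sample 1, and the sums of the other vehicle samples were above those of all STZ samples. Without vehicle sample 1 the C-type log2 fold change was -0.29, and without STZ sample 3 it was -0.29.

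In the beta cluster the sums did not separate. They were 87.0, 90.2 and 80.9 CPM in vehicle and 88.6, 76.0 and 76.2 CPM in STZ samples (log2 fold change -0.10, SE 0.0856, 95% interval -0.34 to 0.14, edgeR adjusted p = 0.684). Pcdhb14, the leading beta gene, had 16.3, 15.0 and 14.5 CPM in vehicle and 13.2, 11.8 and 10.9 CPM in STZ samples, with no overlap (log2 fold change -0.36, SE 0.121, edgeR adjusted p = 0.364). It made up 18.8%, 16.6% and 17.96% of beta counts in vehicle and 14.9%, 15.5% and 14.2% in STZ samples.

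Pcdhb2 had the largest fold difference among tested members in the lower direction, at a low level. Its read counts were 33, 31 and 38 in vehicle and 21, 16 and 18 in STZ samples, which is 0.615, 0.597 and 0.663 CPM against 0.346, 0.275 and 0.306 CPM. The groups did not overlap, and the log2 fold change was -1.01 with an edgeR SE of 0.257 (adjusted p = 0.288) but a DESeq2 SE of 0.4999 (adjusted p = 0.374). Pcdhb7 had 8.85, 8.53 and 8.90 CPM against 10.7, 7.44 and 7.95 CPM, and Pcdhb17 had 8.28, 8.44 and 7.17 CPM against 8.90, 6.54 and 5.75 CPM. For both, STZ sample 1 was the highest of the 6 samples and the groups overlapped. Pcdhb9 was the 1 member with all STZ samples above all vehicle samples (log2 fold change 0.24, SE 0.1695), and it is named because it was the only one.

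For the alpha cluster, the data allowed no narrow statement. The sums were 4.12, 8.44 and 6.91 CPM in vehicle and 8.06, 4.50 and 6.67 CPM in STZ samples, with a log2 fold change of -0.02 and a 95% interval of -0.89 to 0.85. The spread among samples of 1 group was larger than the difference between groups. The neuron marker list had its lowest sum in vehicle sample 1, at 68.6 CPM, with 124 and 95.9 CPM in the other vehicle samples. In STZ samples it was 129, 95.6 and 92.3 CPM. The choroid plexus, endothelial, mural and ependymal lists were also lowest in vehicle sample 1, at 6015, 33.4, 108 and 65.3 CPM. The astrocyte, oligodendrocyte, oligodendrocyte precursor and microglia lists were not. The part of any of these cells in the alpha values was not tested. The sign of the alpha fold change turned in 3 of the 6 fits that left out 1 sample, and its values ran from -0.26 to 0.21. Alpha 1 to 12 genes summed to 2.54, 4.72 and 3.40 CPM against 5.09, 2.85 and 3.59 CPM, and the alpha C-type genes to 1.58, 3.72 and 3.51 CPM against 2.97, 1.65 and 3.08 CPM. Pcdhac1 was at 0 counts in vehicle sample 1, where 3 counts of the total, without the TMM factor, are 0.0547 CPM, and at 15 and 44 in the other vehicle samples against 23, 22 and 29 in STZ samples. Pcdhac2 had 1.58, 3.43 and 2.74 CPM in vehicle and 2.59, 1.27 and 2.59 CPM in STZ samples (log2 fold change -0.27, SE 0.381).

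Counted over all tested members on the TMM-scaled CPM scale, 8 (16%) had all STZ samples below all vehicle samples, against 9.85% of all genes, and 1 (2%) had them above, against 8.64%. On the deposited FPKM scale, which carries no TMM scaling, 5 members were below, against 5.64% of all genes, and 1 was above, against 13.1%. The 5 were also among the 8: Pcdhb2, Pcdhb14, Pcdhgb2, Pcdhgc3 and Pcdhgc5.

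The spread between replicates differed among the clusters. The biological coefficient of variation that edgeR estimated had a median of 0.1702 over gamma genes, 0.201 over beta genes and 0.353 over alpha genes, beside 0.191 over all genes tested. The lowest value was 0.0912, in gamma. For 20 of the 21 beta genes the estimate lay under the trend fitted to genes of like abundance, as it did for 15 of 22 gamma genes, 1 of 7 alpha genes and 73.7% of all genes. Along the chromosome, the log2 fold change of gamma genes went down toward the C-type end (rho -0.54 across 22 genes, -0.39 across the 19 A and B genes), while rho was 0.54 across the 7 alpha genes tested, in the opposite direction, and 0.13 across 21 beta genes.

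Genes that act with the clustered protocadherins showed no call with edgeR. The list of promoter choice and silencing holds CTCF, cohesin subunits, Smchd1 and DNA methyltransferases, which loop the promoters to their enhancers or keep them silent. Of its 18 genes, 0 were higher and 1 lower at an unadjusted p under 0.05, with a median log2 fold change of 0.03. Over all genes tested, to be set beside each of these lists, 5.63% were higher and 5.65% lower at that level. The median over all genes was 0.012. The lower gene of this list was Dnmt3a, a de novo DNA methyltransferase, with 81.0, 73.1 and 67.0 CPM in vehicle and 63.8, 66.7 and 61.3 CPM in STZ samples (log2 fold change -0.20, edgeR adjusted p = 0.436).

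Of 21 cytoplasmic partners and processing genes, which include the kinases and WAVE complex bound by the shared tail and the secretase that cleaves it, 1 was higher and 1 lower, and the median was -0.09. Ncstn, a subunit of gamma-secretase, had a log2 fold change of -0.22 (SE 0.0655), and Pdcd10, a partner of the gamma tail, had 0.23 (SE 0.0953). Neither passed after adjustment, with edgeR adjusted p of 0.326 and 0.428.

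The non-clustered protocadherins are single genes outside the 3 clusters that lack the constant exons. Of 11 tested, 3 were lower and 0 higher at an unadjusted p under 0.05, against 5.65% and 5.63% of all genes, with a median of -0.14. Pcdh8, a synaptic protocadherin induced by neuronal activity, had 3.32, 3.12 and 3.52 CPM in vehicle and 1.58, 1.49 and 1.45 CPM in STZ samples. The groups were far apart, and the log2 fold change was -1.14 (SE 0.196). DESeq2 called it (adjusted p = 0.000405) and edgeR did not (adjusted p = 0.169). Pcdh7 had 132, 106 and 107 CPM against 101, 99.5 and 91.0 CPM (log2 fold change -0.24, edgeR adjusted p = 0.432).

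Among 17 tested genes of the wider cadherin superfamily, 1 was higher and 2 were lower, with a median of -0.06. None passed after adjustment. The classical cadherins Cdh10 and Cdh4 had log2 fold changes of -0.27 and -0.25 (edgeR adjusted p of 0.402 and 0.429), and the groups overlapped for Cdh4. Cdh13, the cadherin anchored by a lipid, had 0.34 (edgeR adjusted p = 0.414). The 10 genes that neighbor the clusters on chromosome 18, such as Hdac3 and Taf7, had 0 genes in either direction at that level and a median of 0.06, with sums of 324 to 340 CPM in vehicle and 332 to 350 CPM in STZ samples. Differences between these lists and the clustered members were not tested.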

How the data were processed

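Sorted tdTomato-positive astrocytes were profiled in 3 vehicle and 3 STZ samples, each a pool of 3 mice, grouped by the treatment in the sample labels. The labels do not say whether samples are separate experiments, so p-values measure the spread between these samples. Libraries were made from polyA RNA with the SMART-Seq mRNA kit, and the submitters' processing notes name mm10, Trimmomatic 0.38, HISAT2 2.1.0 and StringTie 2.1.3b; the annotation and the strand setting are not given in the sources used here. The deposited read counts are whole numbers for each gene and carry no normalization. The deposited FPKM divide by transcript length and mapped reads, and the deposited TPM served 1 alternative. All measurement columns belonged to mapped samples. An outlier step in the study's methods was not repeated, since its details are not given.

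The 22337 genes without a 0 in any sample entered a two-sided quasi-likelihood test of edgeR 4.0.16 (R 4.3.3) with TMM scaling, group as the only term and Benjamini-Hochberg adjustment across them, with DESeq2 1.42.0 and limma 3.58.1 (pseudocount 1 on TPM) as alternatives. A call needed an adjusted p under 0.05 together with more than a 1.5-fold difference. Cluster and subgroup sums replaced their members in the same fit. SE is the fold change over the root of edgeR's F, and 95% intervals use 4 residual degrees of freedom. Gene positions come from RefSeq on GRCm38 by gene number, matched for 58 of 58 listed members. Exons come from the GENCODE basic annotation on GRCm38, in transcripts matched to RefSeq accessions, and none was matched for Pcdha10 and Pcdhgb8. The 3 read-through gene models that span the clusters held at most 42 counts in a sample; 1 long noncoding RNA gene that overlaps gamma held 39 to 78. No 2 samples agreed within sampling noise. The fits were tested on simulated data. Named in full were the sums, the C-type genes, the 3 highest genes of each cluster by FPKM, and in each cluster and direction up to 3 genes of smallest p among those under 0.05; of each related list, genes called by either tool and up to 2 in each direction. The members and all lists were chosen with earlier results of these data known.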

Additional observations from a re-analysis of the deposited data

How the results depend on the processing

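No member was called under any alternative run: DESeq2, edgeR with the size factors of DESeq2, every gene with a count kept, filterByExpr, limma on log2(TPM + 1), the replicate block, or leaving out 1 sample at a time. The number of members lower at an unadjusted p under 0.05 was 7. It was 10 with DESeq2, 9 without a filter, 8 with filterByExpr, 8 with the size factors of DESeq2, 4 with limma and 3 to 8 without 1 sample; the number higher was 0, and 0 to 1 without 1 sample. On the FPKM scale, an alternative chosen after seeing the data, 5 members in place of 8 had STZ samples below all vehicle samples. The gamma share of the family was 83.9% of FPKM against 87.6% of counts.

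Leaving out 1 sample moved the log2 fold change of the gamma sum between -0.29 and -0.16, gamma A between -0.19 and -0.0034, gamma B between -0.28 and -0.14, gamma C-type between -0.39 and -0.29 and beta between -0.18 and -0.062, without a change of direction. The alpha sum ran from -0.26 to 0.21 and was 0.21, 0.020 and 0.18 without vehicle sample 2, vehicle sample 3 and STZ sample 2. It was 0.020 with limma and 0.00039 with the replicate block. Alpha 1 to 12 ran from -0.14 to 0.36, at -0.081 and -0.14 without vehicle sample 1 and STZ sample 1, and alpha C-type from -0.50 to 0.042, at 0.00019 and 0.042 without vehicle sample 2 and STZ sample 2. Pcdhac2 ran from -0.52 to 0.0018, the latter without STZ sample 2, Pcdhb7 from -0.19 to 0.092, at 0.092 and 0.052 without STZ samples 2 and 3, and Pcdhga7 from -0.15 to 0.29, at -0.032, -0.041 and -0.15 without vehicle samples 2 and 3 and STZ sample 1. The medians of the related lists ran from -0.014 to 0.063 for promoter choice and silencing, -0.21 to -0.090 for non-clustered protocadherins and -0.15 to 0.014 for other cadherins. The cause of these changes was not tested.

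The groups share the replicate numbers 1 to 3. Samples of the same number did not deviate together (correlations -0.10, -0.16 and -0.18), so there was no sign that the numbers pair them. A check on 3 samples per group cannot exclude a pairing. With the replicate block the gamma C-type log2 fold change was -0.35 (edgeR adjusted p = 0.6004) and 7 members were lower at an unadjusted p under 0.05; over all genes, calls went from 5 to 0. Calls over all genes were 234 with DESeq2, 7 without a filter, 7 with filterByExpr, 0 with limma and 0 to 1 without 1 sample. The median alpha gene averaged 18.7 counts per sample, and whether the spread of the alpha values comes from depth was not tested.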
